A study of Mus musculus with 8 samples.

Results

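The expression of all 67 target mRNAs of the assay was compared between the inbred strains LG/J, labelled a healer, and SM/J, labelled a non-healer, which are the parents of the recombinant inbred lines in the same data. Members were every numbered signal deposited for either parent, which gave 8 assay replicates a strain for the 33 mRNAs of panel 1 and 9 a strain for the 34 mRNAs of panel 2. These came from 2 of the 8 strains measured. Mice of both strains had a full-thickness defect made in the knee cartilage at 8 weeks of age and were kept on a normal diet, and the knees were harvested 16 weeks later. The labels give no transgene and no agent for either strain, and the sex of the mice is not given in the sources used here. The lysates came from 25 formalin-fixed, paraffin-embedded sections of 5 µm per strain, taken from 3 to 4 mice. Cartilage, subchondral bone, meniscus, growth plate, joint capsule and synovium were scraped off together. In such bulk tissue, fewer cells of a type and less RNA per cell cannot be told apart. The files do not say which signals came from which mouse, and every P value below therefore measures the spread between assay replicates, not between mice.

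Articular cartilage is made by chondrocytes, which surround themselves with a matrix of type II collagen and aggrecan and renew it slowly. In the growth plate, chondrocytes enlarge, switch to type X collagen under the control of *Runx2* and Indian hedgehog, and are replaced by bone with the help of the proteases *Mmp13* and *Mmp9*. Repair of a defect that reaches the bone draws on cell division, matrix turnover, inflammation and growth factor signals, and mRNAs of each of these were on the panels.

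Each target was measured as the brightness of branched DNA on coded beads, given here as a signal in assay units, and as a normalized value. The normalized value is the part of the log10 signal that the reference genes of the panel did not predict, so that 0 is the level expected from the reference genes. Differences between parents are given as log2 of LG/J over SM/J, from normalized values unless signals are named. Signals of the targets ranged from 2 to 28860, and the geometric mean signal was under 10 for 11 of the 67 mRNAs. The files hold no bead counts and no background readings, and the precision of any one signal is unknown. Markers of cartilage and bone were above this low range in both parents. The median signals of *Col2a1*, *Acan*, *Comp*, *Mia1* and *Sox9* lay between 34 and 2974 in LG/J and between 18.5 and 1181 in SM/J. For the bone mRNAs *Runx2*, *Bglap1* and *Col1a1* they lay between 280.5 and 19062 in LG/J and between 149 and 18471 in SM/J.

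In SM/J, 3 consecutive assay replicates of each panel stood apart. Signals 3 to 5 of panel 1 and signals 4 to 6 of panel 2 had *Gapdh* at 8.69% to 12.6% of the median of the other SM/J signals. The *Gapdh* signal of panel 1 was 1471 to 1891 in these 3 replicates and 11336 to 18843 in the other 5, against 8610 to 12147 in LG/J. That of panel 2 was 346 to 497 in the 3 replicates and 3091 to 4577 in the other 6, against 1864 to 3273 in LG/J. The 3 replicates were therefore far below every other replicate of either parent, and the differences that passed are also given without them. Consecutive signals of a strain also tended to be alike, in runs of 2 or 3. The deviations from the strain mean correlated with a median r of 0.54 to 0.84 within runs and of -0.51 to -0.31 between runs, across mRNAs, which are not independent replicates. In panel 2 the lowest r within a run was -0.25 in LG/J and 0.07 in SM/J. Taking deviations from the strain mean itself pushes r between runs below 0. In panel 1 the runs were split where the spread inside them was smallest. The study's methods describe both biological and technical replicates and an average for each mouse, but the files tie no signal to a mouse, and whether a run is 1 mouse was not tested.

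**Figure D1:**
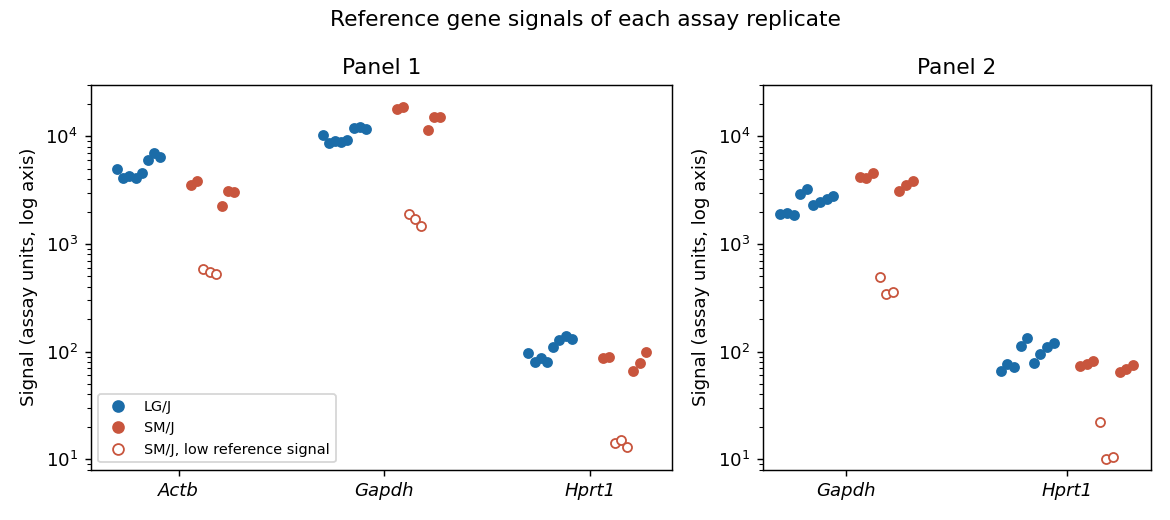
Signals of the reference genes (assay units, log axis) in every assay replicate of LG/J (blue) and SM/J (red), left to right in the order of the signal numbers, for panel 1 (8 replicates a strain) and panel 2 (9 a strain). The open SM/J points are the 3 replicates of each panel with a *Gapdh* signal of 8.69% to 12.6% of the others, and *Gapdh* in the other SM/J replicates of panel 2 (3091 to 4577) overlapped only the top of those of LG/J (1864 to 3273).

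The reference genes themselves differed between the parents. *Gapdh*, an enzyme of glycolysis, stood higher against *Actb*, the cytoskeletal actin, in SM/J. The ratio of the *Gapdh* to the *Actb* signal was 1.74 at the lowest, 2.05 at the median and 2.15 at the highest in LG/J, and 2.81, 4.90 and 5.05 in SM/J. Every SM/J replicate was above every LG/J replicate (exact permutation test, adjusted P = 0.000311 over 4 ratios). Against *Hprt1*, an enzyme of purine salvage, *Gapdh* in panel 1 was 84.2 to 111 times as bright in LG/J and 113 to 212 times in SM/J, again with no overlap. In panel 2 the same ratio ran from 23.5 to 29.3 in LG/J and from 22.6 to 57.3 in SM/J, and the strains overlapped. By plain signal, *Actb* was higher in LG/J by 1.64 (log2) and *Hprt1* by 1.28 in panel 1 and 1.17 in panel 2. The mean *Gapdh* signal did not differ past the threshold in either panel. Among the other strains the median *Gapdh* over *Actb* ratio ran from 1.09 to 3.80, with LGXSM-33 at the top. A target that was higher in LG/J relative to *Gapdh* could thus be lower relative to *Hprt1*, and the direction of the main differences under other references is given after the results.

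Of the 67 target mRNAs, 13 (19.4%) differed between the parents at an adjusted P below 0.05. LG/J was higher for 8 (11.9%) and SM/J for 5 (7.46%). Without adjustment 19 mRNAs passed, 11 of them higher in LG/J and 8 higher in SM/J. Without the 3 SM/J replicates of low reference signal, 18 were called, 14 higher in LG/J and 4 in SM/J, and 11 of the 13 were among them. Some mRNAs not called with all replicates were thus called there. Below, called and not called refer to all replicates unless another setting is named. When each run of consecutive signals was averaged to 1 value, giving 3 a parent, limma called 0 mRNAs, with a smallest adjusted P of 0.114. At an unadjusted P below 0.05 it gave 9, of which 8 were among the 13. Differences were small for most mRNAs. The absolute difference had a median of 0.22 on the log2 scale, only *Adipoq* reached 1, and the median difference over all 67 was 0.05. The values of SM/J were more spread than those of LG/J for 47 of the 67 mRNAs, with a median ratio of the SDs of 1.44.

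The matrix proteases gave 2 of the calls, both higher in LG/J, where 11.9% of all mRNAs were called. The list held 6 mRNAs, of which 4 had a higher mean in LG/J and 2 in SM/J, beside 38 and 29 of all 67, with a median difference of 0.33 against 0.05 over all mRNAs. *Mmp13* encodes collagenase 3, which cuts type II collagen and is made by hypertrophic chondrocytes and osteoblasts. Its signal was 675 at the lowest, 808 at the median and 1606 at the highest in LG/J, and 79, 433.5 and 537 in SM/J, where the replicates of low reference signal gave 79 to 108.5 and the others 370 to 537. Before normalization, every LG/J replicate was thus above every SM/J replicate. Without normalization 10 of the 67 mRNAs did not overlap, and 60 had higher means in LG/J. Normalized values of *Mmp13* were 0.0741, 0.140 and 0.276 (lowest, median and highest) in LG/J and -0.100, -0.0463 and 0.0800 in SM/J. A single SM/J replicate, 1 of the 3 of low reference signal, reached above the lowest LG/J replicate. The difference was 0.66 ± 0.12 (SE, n = 8 and 8; exact permutation test, adjusted P = 0.00496), and 0.79 without the 3 replicates.

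*Mmp9* encodes gelatinase B, which osteoclasts and neutrophils secrete. The signal of *Mmp9* was 198.5, 292 and 483 (lowest, median and highest) in LG/J and 16.5, 119.5 and 163 in SM/J, without overlap. Before normalization 10 of the 67 mRNAs had none. After normalization the LG/J values were 0.0456, 0.102 and 0.184, and those of SM/J were -0.318, -0.0474 and 0.0523. All but 1 of the 9 LG/J replicates lay above all of SM/J. The mean difference was 0.61 ± 0.15 (exact permutation test, n = 9 and 9, adjusted P = 0.00367). Leaving out the 3 SM/J replicates brought it to 0.36, since these 3 held the lowest values, and the call stayed (exact permutation test, adjusted P = 0.00578). With the residuals also recomputed without them it was 0.27 and was not called (exact permutation test, adjusted P = 0.111). *Mmp3*, stromelysin 1, had as large a mean difference as *Mmp13* (0.66) but an SE of 0.37, and it did not pass (adjusted P = 0.255, exact permutation test). It was 1.13 without the 3 SM/J replicates, and it turned to -0.14 against the mean of the reference genes and to -0.25 against *Hprt1*. With slopes fitted within strains *Mmp3* was 1.62, against *Gapdh* 0.44 and without normalization 1.03. *Mmp1a*, an interstitial collagenase, and the aggrecanases *Adamts4* and *Adamts5* differed by -0.27, 0.05 and -0.01 and were not called.

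*Runx2* was the only one of the 67 mRNAs (1.49%) whose normalized values did not overlap between the parents, against 9 mRNAs when the 3 SM/J replicates were left out. It encodes the transcription factor that drives osteoblast formation and chondrocyte hypertrophy. LG/J values of *Runx2* were 0.0605, 0.111 and 0.196 (lowest, median and highest), and SM/J values were -0.0715, -0.00205 and 0.0266. The gap between the lowest LG/J and the highest SM/J replicate was narrow beside the range within either strain. Its difference was 0.44 ± 0.08 (SE; exact permutation test, n = 8 and 8, adjusted P = 0.00367), close to the 0.47 found without the 3 SM/J replicates. The unadjusted P of 0.000155 is the smallest that 8 against 8 replicates can give. For *Bglap1*, the osteocalcin of mature osteoblasts and the other mRNA of bone formation measured, the difference was 0.01 ± 0.22 and did not pass (exact permutation test, adjusted P = 0.974).

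*Mmp13* is a known target of the *Runx2* protein, and both mRNAs were higher in LG/J. The promoters of the 10 named and called mRNAs with an entry were searched for RUNX and AP-1 cores. Those of *Mmp13* and *Runx2*, the 2 with a RUNX core, are shown. Each is the RefSeq sequence of the assembly GRCm38.p6 from 250 bases before to 50 bases after the start of the gene, read along the gene's strand. It is the C57BL/6J reference and not the sequence of either parent, and variants of LG/J and SM/J were not analysed here. Capitals mark the RUNX core AACCACA and the AP-1 core TGAGTCA, searched on both strands without overlap between them. *Mmp13* lies at chr9:7272264-7272563 on the plus strand and *Runx2* at chr17:44814578-44814877 on the minus strand.
Mmp13: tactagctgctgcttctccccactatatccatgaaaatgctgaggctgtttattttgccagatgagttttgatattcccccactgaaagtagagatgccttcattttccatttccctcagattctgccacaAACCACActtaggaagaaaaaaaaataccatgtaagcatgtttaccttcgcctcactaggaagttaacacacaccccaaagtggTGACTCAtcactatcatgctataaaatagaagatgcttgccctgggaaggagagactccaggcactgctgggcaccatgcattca
Runx2: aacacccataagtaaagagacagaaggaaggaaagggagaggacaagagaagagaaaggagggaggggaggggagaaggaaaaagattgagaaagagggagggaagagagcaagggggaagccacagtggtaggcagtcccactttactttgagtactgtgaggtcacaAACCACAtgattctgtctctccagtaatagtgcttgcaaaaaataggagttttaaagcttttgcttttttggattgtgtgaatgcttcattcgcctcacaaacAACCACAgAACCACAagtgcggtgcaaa
The *Mmp13* window held 1 RUNX core starting 119 bases before the gene start and 1 AP-1 core 35 bases before it, the latter on the opposite strand (TGACTCA). The *Runx2* window held 3 RUNX cores, 1 of them 81 bases before the start and 2 after it. Among all 32851 RefSeq promoters of this length, 5.27% held the RUNX core and 5.20% the AP-1 core. Of the 10 named and called mRNAs with a promoter entry, *Mmp13* and *Runx2* were those with the RUNX core, and *Mmp13* and *Il6* those with the AP-1 core. *Mmp9* and *Becn1* had no entry. A match of these letters describes the sequence alone.

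All 4 mRNAs of cartilage matrix had higher means in LG/J, as did 38 of all 67 mRNAs, and 0 of the 4 was called by the exact permutation test, against 19.4% of all mRNAs. Limma over 8 strains called *Acan* and *Mia1* (adjusted P = 0.0444 for either). The median difference of the 4 was 0.57, against 0.05 over all mRNAs, and 0 of the 4 had an unadjusted P below 0.05 in the exact permutation test. *Acan*, the large proteoglycan that holds water in cartilage, had with all replicates the largest mean difference in favour of LG/J of any mRNA (0.81 ± 0.46, SE). Its signal was 129, 311.5 and 856 (lowest, median and highest) in LG/J and 26, 54 and 212.5 in SM/J. Normalized, *Acan* ran from -0.191 through a median of 0.157 to 0.436 in LG/J and from -0.586 through -0.0192 to 0.171 in SM/J. The ranges overlapped broadly, and 3 of 8 LG/J replicates were above all of SM/J (exact permutation test, adjusted P = 0.255). Without the 3 SM/J replicates the difference was 0.95 and did not pass either (exact permutation test, adjusted P = 0.234). With slopes fitted within strains it was 1.61 and without normalization 2.29, and both passed (exact permutation test, adjusted P of 0.0142 and 0.0167). The means of the runs showed where the spread lay. They were 0.157, -0.154 and 0.422 in LG/J and -0.547, -0.0306 and 0.122 in SM/J. *Col2a1*, type II collagen, differed by 0.65 ± 0.52, *Comp*, a protein of the cartilage matrix between cells, by 0.48 ± 0.47 (-0.58 against the mean of the reference genes and -0.69 against *Hprt1*), and *Mia1*, a secreted chondrocyte protein, by 0.43 ± 0.25. With slopes fitted within strains *Comp* was 1.11, against *Gapdh* 0.001 and without normalization 0.59.

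The other collagen mRNAs were not separated either. *Col10a1*, the collagen of hypertrophic chondrocytes, ran from -0.211 through 0.304 to 0.49 in LG/J and from -0.224 through -0.0530 to 0.524 in SM/J. The strains covered nearly the same range (0.34 ± 0.51, SE; exact permutation test, adjusted P = 0.667), and without the 3 SM/J replicates the difference turned to -0.20. *Col1a1*, the collagen of bone, differed by 0.02, *Col6a6* of the type VI collagens by 0.17 and the collagen receptor *Ddr2* by 0.27, and none of these was called. Of the signals that set the pace of the growth plate, *Ihh* had the largest difference. This mRNA encodes Indian hedgehog, made by chondrocytes as they enlarge. LG/J values of *Ihh* were -0.0683, 0.122 and 0.353 and SM/J values -0.211, -0.0158 and 0.137, with 4 of 9 LG/J replicates above all of SM/J. The difference of 0.47 ± 0.20 passed before adjustment (exact permutation test, P = 0.0367) and not after (adjusted P = 0.144), and it was 0.31 without the 3 SM/J replicates. It passed with slopes fitted within strains (0.58, exact permutation test, adjusted P = 0.0236) and by limma over 8 strains (adjusted P = 0.00968). Against the mean of the reference genes it was 0.35 and did not pass (exact permutation test, adjusted P = 0.446), and against *Hprt1* it was -0.03. *Pthlh*, its partner in a feedback loop, and *Fgf18*, a growth factor of cartilage, differed by 0.33 and -0.17 and were not called.

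**Figure D2:**
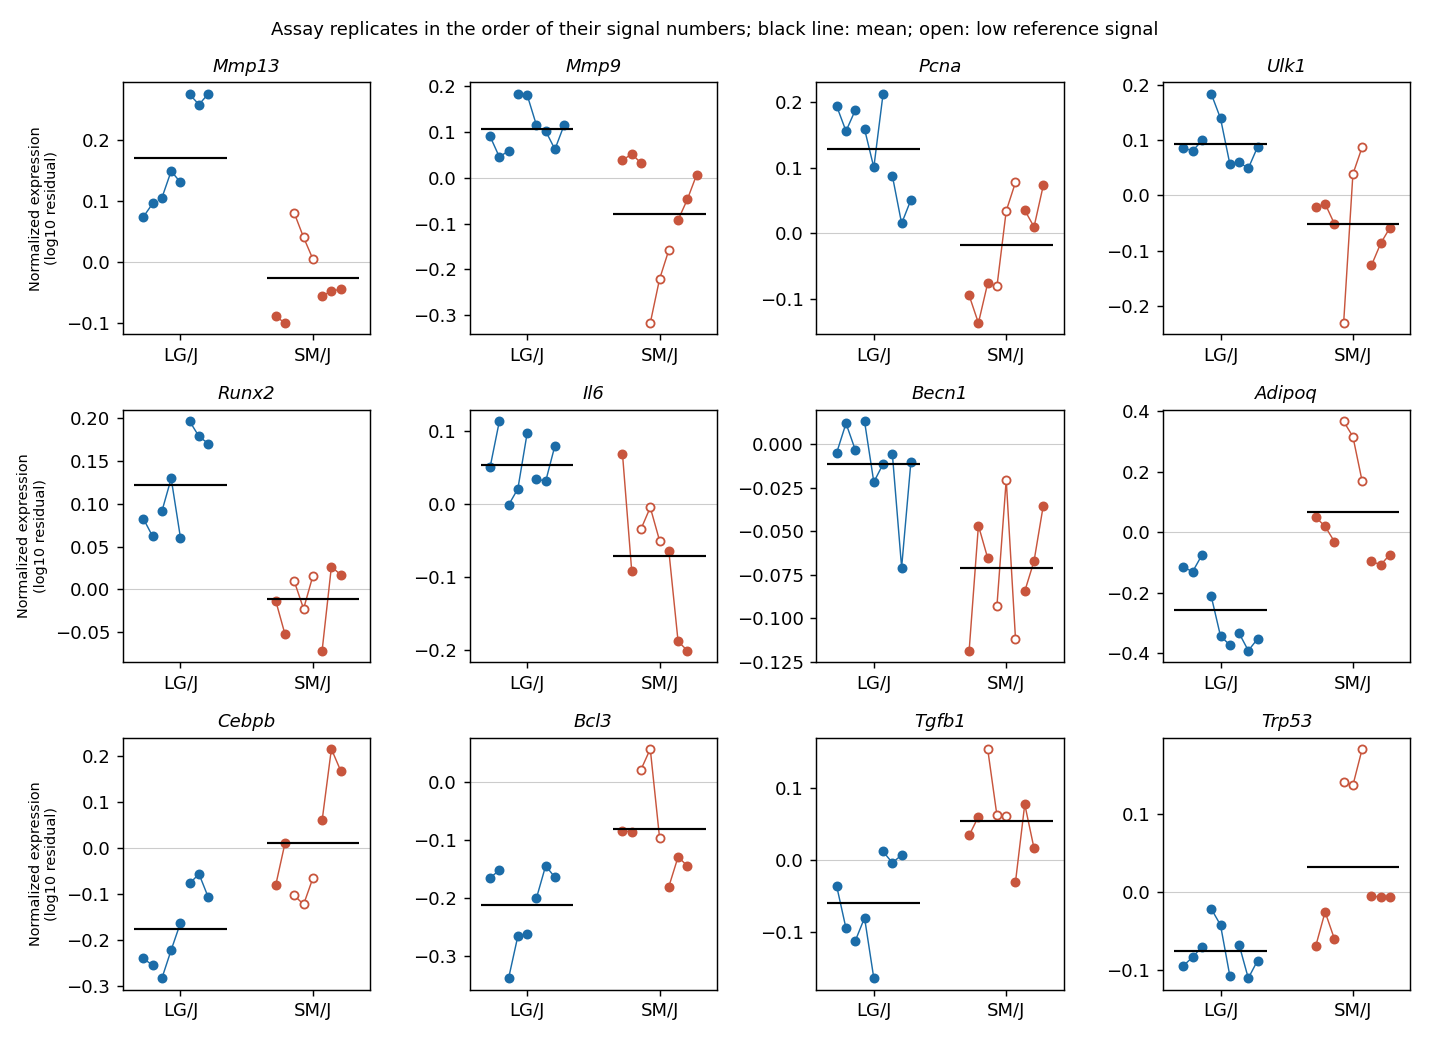
Normalized expression (log10 residual, vertical axis) in every assay replicate of the 12 named mRNAs that differed, LG/J in blue and SM/J in red, left to right in the order of the signal numbers, with lines joining the replicates of a run and a black line at the mean. Open points are the 3 SM/J replicates of low reference signal, which held the highest *Adipoq* and *Trp53* values and the lowest *Mmp9* value, and only *Runx2* shows no overlap.

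Of the 5 mRNAs of DNA repair and replication, *Pcna* was called and 4 had a higher mean in LG/J, where 11.9% of all mRNAs were called and 38 of all 67 had a higher mean. *Pcna* encodes the sliding clamp of DNA polymerase and marks dividing cells. Its signal was 275, 350 and 543 (lowest, median and highest) in LG/J and 17, 154 and 236 in SM/J, without overlap. Before normalization 10 of the 67 mRNAs had none. Normalized *Pcna* was 0.0151, 0.155 and 0.212 in LG/J and -0.136, 0.00989 and 0.0777 in SM/J. In this scale 7 of 9 LG/J replicates were above all of SM/J, and the difference was 0.49 ± 0.12 (exact permutation test, adjusted P = 0.00930). It was 0.53 without the 3 SM/J replicates. *Xrcc2* of homologous recombination and *Polq*, a polymerase that joins broken ends, differed by 0.31 and 0.27. *Fancc* of the Fanconi anaemia pathway and *Xpa* of nucleotide excision repair differed by 0.10 and -0.03. None of these 4 was called with all replicates.

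*Trp53*, which encodes the p53 protein that halts the cell cycle after DNA damage, was higher in SM/J. LG/J values of *Trp53* were -0.110, -0.0830 and -0.0213 and SM/J values -0.0685, -0.00657 and 0.183. The 3 SM/J replicates of low reference signal held the highest values and the other 6 lay closer to LG/J. The difference was -0.36 ± 0.11 (exact permutation test, n = 9 and 9, adjusted P = 0.00992) with all replicates and -0.16 without the 3 (exact permutation test, adjusted P = 0.0461). With the residuals also recomputed without them it was -0.10 and was not called (exact permutation test, adjusted P = 0.171). Before normalization the *Trp53* signal was 23.5 to 39 in LG/J and 14 to 30.5 in SM/J. *Cdkn1a*, the cell cycle inhibitor that p53 switches on, differed by -0.24 ± 0.26, and *Cdkn2a*, which encodes inhibitors of cyclin-dependent kinases, by 0.18 ± 0.16. Neither was called.

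Of the 4 autophagy mRNAs, *Ulk1* and *Becn1* were called, both higher in LG/J, where 11.9% of all mRNAs were called. *Ulk1* encodes the kinase that starts the formation of autophagosomes. Its signals were 34, 43 and 69 (lowest, median and highest) in LG/J and 6, 26 and 34 in SM/J. Normalized, *Ulk1* was 0.0488, 0.0857 and 0.183 in LG/J and -0.231, -0.0513 and 0.0872 in SM/J. A single SM/J replicate, 1 of the 3 of low reference signal, reached the range of LG/J, and 4 of 9 LG/J replicates lay above it. The difference was 0.48 ± 0.11 (exact permutation test, adjusted P = 0.00496), and 0.51 without the 3. *Becn1*, part of the lipid kinase complex that acts next, had the smallest difference of those called, 0.20 ± 0.05 (exact permutation test, adjusted P = 0.00930). Its values were -0.0709, -0.00569 and 0.0130 in LG/J and -0.119, -0.0672 and -0.0204 in SM/J, with 7 of 9 LG/J replicates above all of SM/J. Without the 3 SM/J replicates it was 0.19, and limma over 8 strains did not call it (adjusted P = 0.124). *Atg7* and *Map1lc3a*, which act in and on the conjugation of LC3, differed by -0.06 and -0.17 and were not called.

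The 8 inflammation mRNAs moved in both directions, with 1 call each way (11.9% of all mRNAs were called higher in LG/J and 7.46% in SM/J) and 4 means higher on each side. *Il6*, a cytokine of wound and joint inflammation, was higher in LG/J. The signals behind it were low. They were 8, 10 and 12 in LG/J and 5, 6 and 9 in SM/J. Normalized *Il6* ran from -0.000862 through a median of 0.0430 to 0.114 in LG/J and from -0.201 through -0.0565 to 0.0697 in SM/J, and 3 of 8 LG/J replicates were above all of SM/J. The difference of 0.41 ± 0.12 passed (exact permutation test, adjusted P = 0.0130), and it was 0.49 without the 3 SM/J replicates. Against the mean of the reference genes it turned to -0.49, and against *Hprt1* to -0.60. *Bcl3*, a nuclear regulator of NF-κB, was higher in SM/J by normalized values, with -0.338, -0.183 and -0.145 in LG/J and -0.181, -0.0913 and 0.0562 in SM/J. Its difference was -0.43 ± 0.13 (exact permutation test, adjusted P = 0.0123). Without the 3 SM/J replicates it was -0.29 and was no longer called (exact permutation test, adjusted P = 0.0917). The *Bcl3* signal itself was higher in LG/J, with a median of 77.5 against 52.25. *Ccl3*, a chemokine of macrophages, had the largest difference of the list (-0.55 ± 0.33, and -0.77 without the 3 SM/J replicates) and did not pass. *Nfkb1*, *Stat3*, *Stat6*, *Il4* and *Cxcl12* differed by -0.17, -0.06, 0.24, 0.17 and 0.12. With all replicates, *Nfkb1* and *Stat6*, transcription factors of inflammatory and of interleukin 4 signalling, passed before adjustment and not after (exact permutation test, adjusted P of 0.0777 and 0.0721).

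*Cebpb* was the 1 call among the 5 chondrocyte transcription factors, and it was higher in SM/J, where 7.46% of all mRNAs were called. It encodes C/EBP beta, which acts in chondrocyte hypertrophy, fat cell formation and inflammation. Its values were -0.283, -0.192 and -0.0561 in LG/J and -0.122, -0.0270 and 0.215 in SM/J. The ranges overlapped, with 5 of 8 LG/J replicates below all of SM/J. The difference was -0.62 ± 0.18 (exact permutation test, adjusted P = 0.0232), and -0.83 without the 3 SM/J replicates. With slopes fitted within strains it was -0.36 and was not called (exact permutation test, adjusted P = 0.0671). Leaving out LG/J signal 1 or LG/J signal 2 moved the call just past the threshold (exact permutation test, adjusted P = 0.0505 for either). *Sox9*, the master regulator of the chondrocyte, and *Sox5*, its partner, differed by 0.23 and 0.29. *Epas1*, which encodes the hypoxia factor HIF-2 alpha, and the transcription factor *Tfap2a* differed by -0.15 and 0.10. None of these 4 passed.

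Within the TGF-beta and BMP pathway, 1 of 8 mRNAs was called, the ligand *Tgfb1*, higher in SM/J, where 7.46% of all mRNAs were called. TGF-beta 1 stimulates matrix production and scar formation. LG/J values of *Tgfb1* were -0.165, -0.0588 and 0.0118 and SM/J values -0.0306, 0.0608 and 0.155, so 7 of 8 SM/J replicates were above all of LG/J. Its difference was -0.38 ± 0.10 (exact permutation test, adjusted P = 0.00992), and -0.30 without the 3 SM/J replicates, when it was not called (exact permutation test, adjusted P = 0.0603). The *Tgfb1* signal before normalization was 313 to 633 in LG/J and 81 to 466 in SM/J. The receptor *Tgfbr1*, the ligands *Bmp6* and *Gdf5*, the BMP antagonist *Chrdl1* and the transducer *Smad1* differed by between -0.13 and 0.16 and did not pass.

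None of the 7 Wnt pathway mRNAs passed the adjusted permutation test with all replicates. The ligand *Wnt16*, which is made in bone and joint tissue, had the largest difference of them, 0.57 ± 0.25 (exact permutation test, P = 0.0385, adjusted P = 0.144). Its values were 0.0171, 0.0750 and 0.247 in LG/J and -0.348, -0.0664 and 0.238 in SM/J. The strains overlapped, since SM/J ranged over most of the LG/J values and far below them, and the difference was 0.55 without the 3 SM/J replicates. It passed with slopes fitted within strains (0.81, exact permutation test, adjusted P = 0.0236) and by limma over 8 strains (adjusted P = 0.0415), and it turned to -0.43 against the mean of the reference genes and to -0.54 against *Hprt1*. *Axin2*, a feedback inhibitor that Wnt signalling switches on, differed by 0.30 ± 0.15, and the ligand *Wnt3a*, the receptor *Fzd2*, the transcription factor *Lef1*, the kinase subunit *Csnk2a1* and the matricellular *Wisp1* by between -0.08 and 0.19. Of the 3 growth and vessel factors, all with higher means in SM/J, as had 29 of all 67 mRNAs, 0 was called with all replicates, against 19.4% of all. *Igf1*, an anabolic factor for cartilage and bone, differed by -0.33 ± 0.20 (-0.07 without the 3 SM/J replicates, and -0.93 against the mean of the reference genes, where it was called), the vessel growth factor *Vegfa* by -0.22 ± 0.10 (exact permutation test, P = 0.0387, adjusted P = 0.144) and the peptide ligand *Apln* by -0.02 ± 0.13.

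With the deposited values and all replicates, the adipokines had the largest single difference. Without the 3 SM/J replicates those of *Mmp3* (1.13) and *Acan* (0.95) were larger. *Adipoq* encodes adiponectin, a hormone of fat cells, and was lower in LG/J. The *Adipoq* signal was 12, 17 and 21 (lowest, median and highest) in LG/J and 11, 27 and 43 in SM/J, and the 6 SM/J replicates of ordinary reference signal, at 25.5 to 43, were all above LG/J. Normalized values were -0.392, -0.334 and -0.0757 in LG/J and -0.108, 0.0187 and 0.367 in SM/J. All but 1 of the LG/J replicates lay below all of SM/J. The difference was -1.09 ± 0.24, or 2.12-fold higher in SM/J (exact permutation test, n = 9 and 9, adjusted P = 0.00367). It was -0.73 without the 3 SM/J replicates, which held the highest values, and was still called (exact permutation test, adjusted P = 0.0124). All 4 adipokines had higher means in SM/J, as did 29 of all 67 mRNAs. *Lep* (leptin) differed by -0.33 ± 0.26, *Retn* (resistin) by -0.01 ± 0.09 and *Nampt* (visfatin) by -0.14 ± 0.06. Of these, *Nampt* passed before adjustment (exact permutation test, P = 0.0427) and none passed after. The fat cell markers *Adipoq*, *Lep* and *Retn* had median signals of 7 to 17 in LG/J and 7 to 27 in SM/J, near the low end of the assay, and whether the parents differed in the fat left on the sections was not tested.

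The direction of the differences depended on the reference for some mRNAs and not for others. It was compared under 6 scalings, namely the deposited residuals, residuals with slopes fitted within strains, the ratio to the mean of the reference genes, the ratio to *Gapdh*, the ratio to *Hprt1*, and no normalization. Between these the median difference over all 67 mRNAs moved from -0.54 (ratio to *Hprt1*) to 0.64 (no normalization). LG/J was higher under all 6 for 12 mRNAs, among them *Mmp13* (0.64 to 1.92), *Mmp9* (0.61 to 1.95), *Pcna* (0.49 to 2.02), *Ulk1* (0.21 to 1.38), *Runx2* (0.28 to 1.57) and *Acan* (0.81 to 2.29), and also *Col2a1*, *Mia1*, *Stat6*, *Polq* and *Xrcc2*. The sign was not the same under all 6 for 51 of the 67. SM/J was higher under all 6 for 4, *Adipoq* (-1.83 to -0.66), *Ccl3*, *Lep* and *Mmp1a*. *Il6* turned to -0.49 against the mean of the references and to -0.60 against *Hprt1*, and *Becn1* to -0.03 against *Hprt1*. Against *Gapdh*, *Bcl3* and *Tgfb1* turned to 0.37 and 0.30. Without normalization *Cebpb*, *Bcl3*, *Tgfb1* and *Trp53* were all higher in LG/J, by 0.40, 0.96, 0.89 and 0.30. *Mmp13*, *Mmp9* and *Pcna* were called under all 6, *Ulk1* under all but the ratio to *Hprt1* and *Adipoq* under all but the ratio to *Gapdh*, while *Runx2* was not called against the reference mean or *Hprt1*. *Bcl3*, *Tgfb1* and *Trp53* were -0.22, -0.28 and -0.49 against the reference mean and not called (exact permutation test, adjusted P of 0.429, 0.205 and 0.360). With slopes fitted within strains *Bcl3* was -0.17 and not called (exact permutation test, adjusted P = 0.276). The calls split 61.5% higher in LG/J with the deposited values, 67.9% with slopes within strains, 35.7% against the reference mean, 100% against *Gapdh*, 10.8% against *Hprt1* and 96% without normalization.

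**Figure D3:**
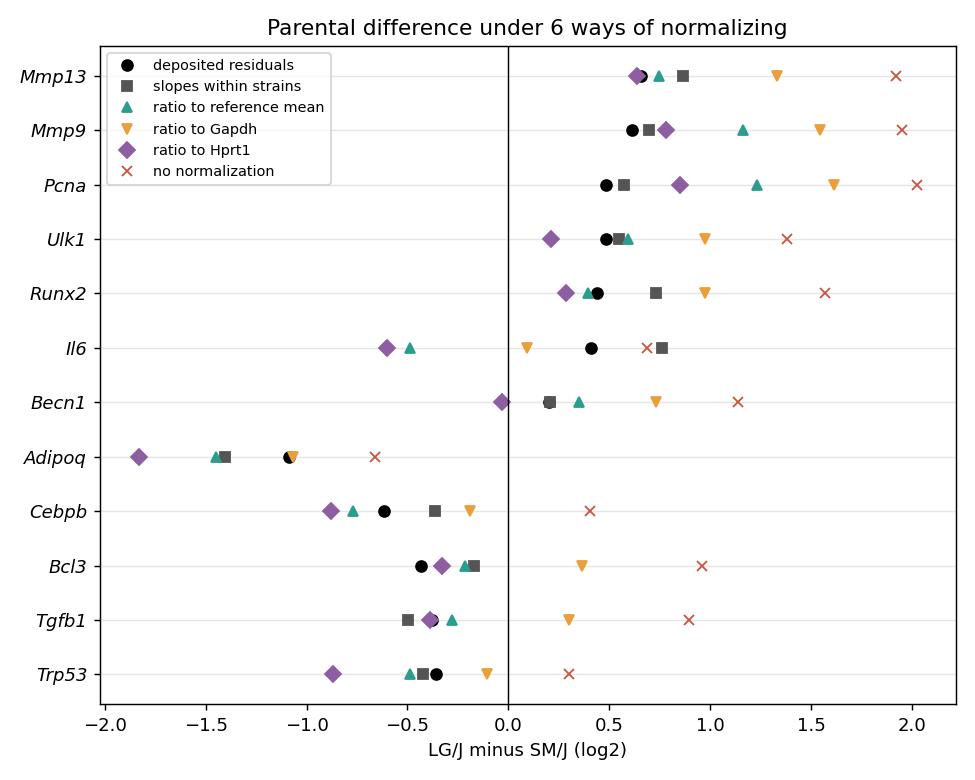
Difference between LG/J and SM/J (log2, horizontal axis) of the 12 named mRNAs that differed, under 6 ways of normalizing, 1 marker each. *Mmp13*, *Mmp9*, *Pcna*, *Ulk1* and *Runx2* stay right of 0 and *Adipoq* left of 0 under all 6, and the other 6 cross 0. The ratio to *Actb* alone is not among the 6 ways.

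The same mRNAs were set beside other pairs of strains labelled healer and non-healer, MRL/MpJ against C57BL6/J and the recombinant lines LGXSM-6 against LGXSM-33. These pairs share no replicate with the parents, but all strains entered the regression behind the normalized values. The pairs are also related to the parents by descent. The study names LG/J as a founder of MRL/MpJ, and both lines come from the cross of LG/J and SM/J. Of the 67 mRNAs, 39 had the same sign in the parents and in MRL/MpJ minus C57BL6/J, and 37 in the parents and in the lines. Of the 13 called in the parents, 8 and 6 did. *Mmp13* was higher in the labelled healer of each pair, by 0.66 in the parents, 0.51 in MRL/MpJ and 0.50 in LGXSM-6 (limma over 8 strains, adjusted P of 0.00712, 0.0390 and 0.0122). With the deposited values, *Pcna* was higher by 0.49, 0.44 and 0.19 and *Runx2* by 0.44, 0.22 and 0.28. The *Pcna* difference passed in MRL/MpJ (limma, adjusted P = 0.00769) and not in the lines, and that of *Runx2* in the lines (limma, adjusted P = 0.0122) and not in MRL/MpJ. Against the mean of the reference genes, *Mmp13* was 0.75, 0.46 and 0.59 in the same order and passed in each pair, *Pcna* in the lines was 1.37 and passed (limma, adjusted P = 3.59e-10), *Runx2* in the MRL/MpJ pair turned to -0.15, and *Il6* turned to -0.49, -0.37 and -0.31. Without normalization *Pcna* in the lines was 2.02 and passed too (limma, adjusted P = 3.15e-05). With the runs averaged, none of these calls of *Mmp13*, *Pcna* and *Runx2* passed in any pair (limma, adjusted P of 0.265 to 0.949).

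Other parental differences were not the same in these pairs. The difference between the differences was tested by limma, and it passed for 5 of the 67 mRNAs against MRL/MpJ minus C57BL6/J and for 14 against LGXSM-6 minus LGXSM-33. *Mmp9* was lower in MRL/MpJ than in C57BL6/J (-0.50 ± 0.11), so that its parental difference exceeded that pair's by 1.12 ± 0.16 (limma, adjusted P = 7.35e-08). Without normalization *Mmp9* in that pair turned to 0.24, and the gap of 1.71 did not pass (limma, adjusted P = 0.124). *Adipoq* differed by 0.16 in MRL/MpJ minus C57BL6/J and -0.16 in the lines, and the parental difference was more negative by 1.24 and 0.92 (limma, adjusted P of 0.00036 and 0.00287). *Trp53* showed 0.13 and 0.05 in the pairs, against -0.36 in the parents, and *Becn1* was lower in LGXSM-6 than in LGXSM-33 by 0.37 on the log2 scale. This *Becn1* difference was -0.02 against the mean of the reference genes and turned to 0.63 without normalization. Against the mean of the reference genes the *Mmp9* gap to the lines was 0.21 and no longer passed (limma, adjusted P = 0.602), and the *Trp53* gaps were -0.05 and -0.67 and did not pass (limma, adjusted P of 0.956 and 0.0775). With the runs averaged, *Mmp9* against the MRL/MpJ pair was the only one of these tests to pass (limma, adjusted P = 0.0369). Across the 8 strain means of the deposited normalized values, LG/J was highest for *Runx2*, *Pcna*, *Ulk1*, *Il6*, *Wnt16*, *Ihh* and *Col10a1* and lowest for *Adipoq*, *Cebpb*, *Bcl3* and *Trp53* among the 17 mRNAs named by rule. On the same scale SM/J was lowest for *Il6* and *Wnt16* and highest for none of the 17. These places are those of the deposited values alone, and the parental order of *Il6*, *Wnt16*, *Col10a1*, *Ihh*, *Cebpb*, *Bcl3* and *Trp53* turned under at least 1 other scaling. Against the mean of the reference genes *Il6*, *Wnt16* and *Col10a1* were lower in LG/J than in SM/J (-0.49, -0.43 and -0.21), and without normalization *Cebpb*, *Bcl3* and *Trp53* were higher there (0.40, 0.96 and 0.30).

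**Figure D4:**
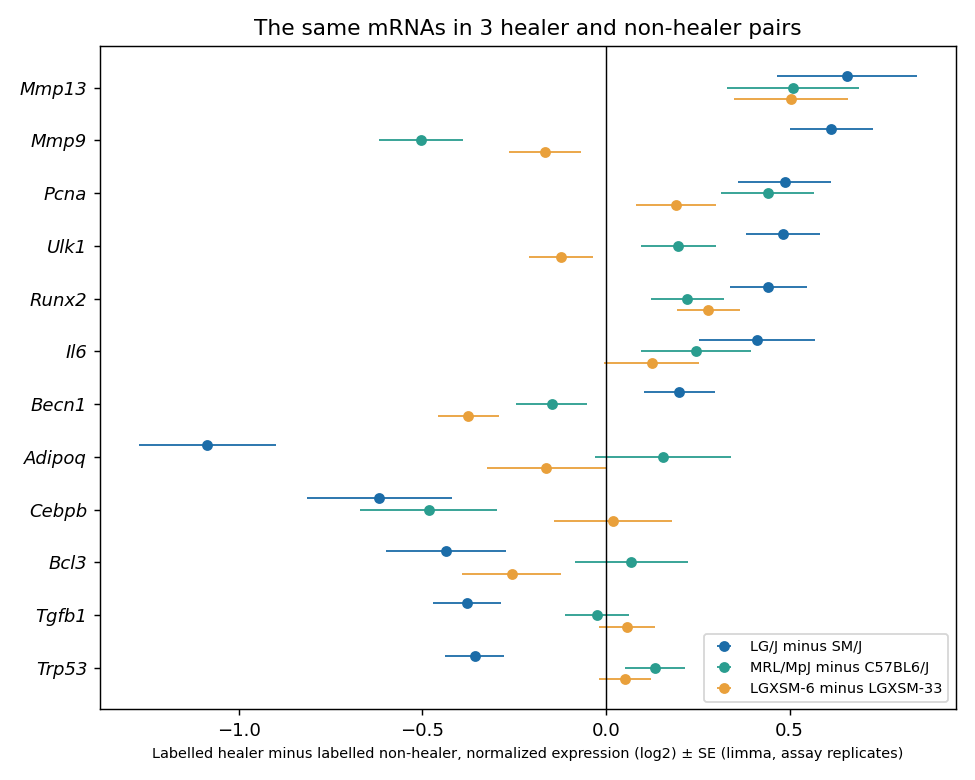
Mean difference between the labelled healer and the labelled non-healer (log2 of normalized expression, horizontal axis) with its SE by limma over assay replicates, for the parents and 2 other pairs of strains. *Mmp13*, *Pcna*, *Runx2* and *Il6* lie right of 0 in each pair with the deposited values (against the mean of the reference genes *Il6* was below 0 in each pair and *Runx2* in the MRL/MpJ pair), while *Mmp9* lies at 0.61 in the parents and at -0.50 in MRL/MpJ minus C57BL6/J. Without normalization *Mmp9* was 0.24 in the latter pair.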

How the data were processed

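The members and gene lists were chosen with earlier results of these data known. The authors measured the mRNAs by QuantiGene Plex assay and deposited log10 signals and normalized values. The deposited normalized values are log10 residuals of a multiple regression in which the panel's reference genes predict each target (*Gapdh*, *Hprt1* and *Actb* in panel 1, *Gapdh* and *Hprt1* in panel 2) over the 76 or 78 assay replicates of 8 strains. Residuals recomputed here differed from the deposited values of the parents by at most 1.36e-05 in panel 1 and 0.0332 (median 0.00536) in panel 2. In panel 2 the deposited values followed another linear function of the log10 signals of *Gapdh* and *Hprt1*, whose fit is not stated. The methods name *Actb* for all mRNAs, and it is not among the panel 2 signals used here. The methods describe a background subtraction, and it is not stated whether it precedes the deposited signals. The authors' fold changes and strain averages were not used. Assay replicates were grouped by the strain in the file headers, and 0 columns of values were left out. No sample was dropped or imputed.

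For each mRNA the means of the normalized values were compared by exact permutation, two-sided, over all regroupings of the assay replicates, whose smallest P is 0.000155 for 8 against 8 and 4.11e-05 for 9 against 9. P values were adjusted over the 67 mRNAs by the Benjamini-Hochberg method, with a threshold of 0.05 and no filter on signal. An exact permutation test over mice could not give a P below 0.1 with 3 against 3 or 0.0286 with 4 against 4. Log10 differences were converted to log2. Contrasts between pairs of strains were fitted by limma 3.58.1 in R 4.3.3 over all 8 strains. Other steps used pandas 2.3.3, numpy 2.4.6 and scipy 1.17.1 in Python 3.11.15, with matplotlib 3.10.9 for plots. The steps were tested on simulated data.

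The mRNAs named by rule were the reference genes, up to 12 called mRNAs with the largest difference in each direction, and the member with the largest difference in each list without a call. Most other list members are named for completeness. One called mRNA, higher in LG/J, is not reported by name here and stays in the counts. The alternatives were other normalizations, a pseudocount of 10, minimum geometric mean signals of 10 and 30, limma, a Tukey comparison over strains, a rank test, medians, a block on the signal number and leaving out each replicate. Added after the data were seen were leaving out the 3 SM/J replicates of low reference signal, the means of runs and the ratios to *Gapdh* or *Hprt1* alone. Of 70 gene symbols, 66 matched a RefSeq symbol of GRCm38.p6 and 4 an older name. The files name no genome build.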

Additional observations from a re-analysis of the deposited data

Results flagged for a closer look

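Of 44 sets of assay replicates checked (the named mRNAs and the reference genes in each parent), 1 held a replicate far from the others. Chance alone flags about 1 in 20 sets. *Becn1* in LG/J had a value of -0.0709 in signal 8, set apart from the next lowest by 58.5% of the whole range.

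The parental difference was not the same as that of another healer and non-healer pair for 6 of the named mRNAs (limma over 8 strains, adjusted P below 0.05). For *Mmp9*, LG/J minus SM/J exceeded MRL/MpJ minus C57BL6/J by 1.12 and LGXSM-6 minus LGXSM-33 by 0.78 on the log2 scale. For *Ulk1* and *Becn1* it exceeded that of the lines by 0.61 and 0.57. For *Adipoq* the gap was -1.24 against the MRL/MpJ pair and -0.92 against the lines. The *Trp53* gap was -0.49 and -0.41 in the same order, and that of *Tgfb1* was -0.44 against the lines. Against the mean of the reference genes, the gaps to the lines of *Mmp9* (0.21), *Ulk1* (0.40), *Becn1* (0.37) and *Trp53* (-0.67) and that of *Trp53* to the MRL/MpJ pair (-0.05) did not pass, while the others did. Without normalization, of these gaps that of *Adipoq* to the MRL/MpJ pair (-1.62) passed.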

How the results depend on the processing

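Of the 13 calls, rank tests, a pseudocount of 10 and limma on the 2 parents kept all 13, limma on 8 strains 12, slopes within strains 11, medians 10, a Tukey comparison over strains 9, and run means 0. Without normalization 9 were kept and 4 turned, against *Hprt1* 8 and 2, against *Gapdh* 7 and 2, and against the reference mean 7 and 1. The count called was 12 to 15 when a replicate was left out, 28 with slopes fitted within strains, 25 without normalization, 37 against *Hprt1* and 0 with run means. The number of mRNAs without overlap was 1 to 3 with a replicate left out, 8 with slopes within strains, 6 against the reference mean, 10 without normalization, 4 with the pseudocount, 4 against *Gapdh*, 10 against *Hprt1*, and 9 without the 3 SM/J replicates of low reference signal, also with residuals recomputed without them. The median difference was -0.30 against the reference mean, 0.64 without normalization and -0.54 against *Hprt1*.

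Means higher in LG/J numbered 38 with the deposited values, 15 against the reference mean, 60 without normalization, 44 against *Gapdh* and 13 against *Hprt1*. Among the 17 mRNAs named by rule, against the reference mean *Il6* (-0.49), *Col10a1* (-0.21) and *Wnt16* (-0.43) turned. Without normalization, *Cebpb* (0.40), *Bcl3* (0.96), *Tgfb1* (0.89), *Trp53* (0.30) and *Igf1* (0.24) turned. Of the same 17, against *Gapdh* it was *Bcl3* (0.37) and *Tgfb1* (0.30), and against *Hprt1* it was *Il6* (-0.60), *Becn1* (-0.033), *Col10a1* (-0.32), *Ihh* (-0.030) and *Wnt16* (-0.54). Without the 3 SM/J replicates *Col10a1* was -0.20, and -0.19 with residuals recomputed. The cause was not tested in any of these.

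The mean log2 *Gapdh* signal differed by 0.59 in panel 1 and 0.41 in panel 2 and did not pass (exact permutation test, adjusted P of 0.337 and 0.464). It was 0.28 and 0.11 at the lowest with a replicate left out, and the median signal was higher in SM/J (13148 against 9711, and 3533 against 2435). Relative to the other reference genes it was -0.87 and -0.76. The plain signal difference without the 3 replicates was -0.60 and -0.69. The *Actb* signal was higher in LG/J by 1.64, and that of *Hprt1* by 1.28 in panel 1 and 1.17 in panel 2. These passed (exact permutation test, adjusted P of 0.000777, 0.0163 and 0.0113). *Actb* was 0.71 relative to the other reference genes (exact permutation test, adjusted P = 0.00039) and, as a plain signal difference, 0.71 without the 3. *Hprt1* of panel 1 fell to 0.17 relative to the others and, as a plain signal difference, to 0.32 without the 3, no longer past the threshold. The count of mRNAs whose parental difference differed from the MRL/MpJ pair's was 9 against the reference mean, 1 without normalization and 1 with run means, and from the lines' it was 0 without normalization and 0 with run means.

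Signals of the same number in both parents correlated with a median r of 0.21 (-0.55 to 0.75, 17 pairs), and 12 of the 17 were over 0.1. The labels tie no numbers together and not every pair was over 0.1, so the numbers were taken only as names. With the signal number as a replicate block, 11 mRNAs were called (6 higher in LG/J), 9 of them among the 13. *Pcna*, *Il6*, *Becn1* and *Tgfb1* were then not called (exact sign-flip permutation test, adjusted P of 0.0654, 0.0698, 0.0698 and 0.0872).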
